A study of Mus musculus with 12 samples.

Results

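A set of genes of the heart's microtubule system were followed in mice after aortic banding with and without hispidulin, namely 9 tubulin genes and Map4. They were the rows of the deposited expression table whose NCBI Gene identifiers belong to Tuba1a (22142), Tuba1b (22143), Tuba4a (22145), Tuba8 (53857), Tubb2a (22151), Tubb2b (73710), Tubb4b (227613), Tubb5 (22154), Tubb6 (67951) and Map4 (17758), which made 10 of 18079 genes. All 10 were found, and all 10 passed the filter on low values, which asked for 1 FPKM or more in 3 or more of the 12 mice and left 11664 genes for testing. FPKM relates the reads of a gene to the length of its transcript and the size of the library, so that levels of different genes can be set side by side.

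The samples were left ventricular muscle of C57BL/6 mice (C57BL/6J in the study's methods), 1 library per mouse and 3 mice in a group. Surgery was done at 8 weeks of age and tissue was taken 4 weeks later, at 12 weeks. In the DMSO+Sham group mice received the solvent and a sham operation, and in the DMSO+AB group the solvent and aortic banding, a narrowing of the aorta against which the left ventricle must pump. Hispidulin+Sham and Hispidulin+AB mice instead received hispidulin, a plant flavone, at 20 mg/kg/day by intraperitoneal injection, from 1 day ahead of surgery to the harvest. The study's methods describe a silk ligature tied around the aorta over a needle, and the labels name no transgene.

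Microtubules are hollow polymers of alpha and beta tubulin pairs. Each kind of tubulin comes from a family of genes, called isotypes, whose proteins are nearly alike except for an acidic tail at the end. Most alpha tubulins are made with a final tyrosine that the vasohibin enzymes, with their partner Svbp, remove and that tubulin tyrosine ligase puts back. In heart muscle cells, detyrosinated microtubules are tied to desmin filaments at the sarcomere and resist shortening, and a denser microtubule network has long been described in pressure-overloaded hearts. MAP4 is the main microtubule-associated protein outside neurons and binds along the polymer.

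The ends of the coding sequences are shown because this is where isotypes of a family part, and because the last codon of an alpha tubulin shows whether its final tyrosine is encoded. Each line gives the last 33 bases of the coding sequence, 5′ to 3′, from transcript sequences of GENCODE release M21, with the last codon ahead of the stop codon in capitals. The alpha genes are followed by the beta genes, with Tuba1c, which is not one of the 10 genes, shown for its family.
Tuba1c: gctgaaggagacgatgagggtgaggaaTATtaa
Tuba4a: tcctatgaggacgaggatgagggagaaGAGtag
Tuba8: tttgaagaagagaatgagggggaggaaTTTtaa
Tubb2a: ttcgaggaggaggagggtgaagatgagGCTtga
Tubb2b: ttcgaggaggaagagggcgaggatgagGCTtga
Tubb4b: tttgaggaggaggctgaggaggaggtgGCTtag
Tubb5: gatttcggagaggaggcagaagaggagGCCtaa

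Of the 3 alpha genes shown, 1 ended in a tyrosine codon (Tuba1c). Tuba8 ended in a phenylalanine codon and Tuba4a in a glutamate codon, so that neither encodes the final tyrosine itself. The 4 beta genes shown ended in an alanine codon.

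The same transcripts show which of these genes 50-base reads can tell apart. Of the 50-base windows along the Tuba1a transcript, 75.5% also occurred in a transcript of another gene, and the share was 83.1% for Tuba1b, both most often with Tuba1c. Tubb2a shared 49.6% of its windows, mostly with Tubb2b, and Tubb4b 55.5%, mostly with its pseudogene Tubb4b-ps1. Tuba4a shared 48.8%, nearly all with Stk16, a kinase gene whose transcripts overlap it, and 2.39% within its coding part. Tuba8 shared 14.7%, Tubb5 0.115%, and Tubb6 and Map4 0%. Levels of Tuba1a and Tuba1b, and of Tubb2a and Tubb2b, could therefore depend on how the authors' program divided shared reads, and sums of each family are given beside them, while Tubb5, Tubb6 and Map4 rested on reads of their own.

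**Figure D1:**
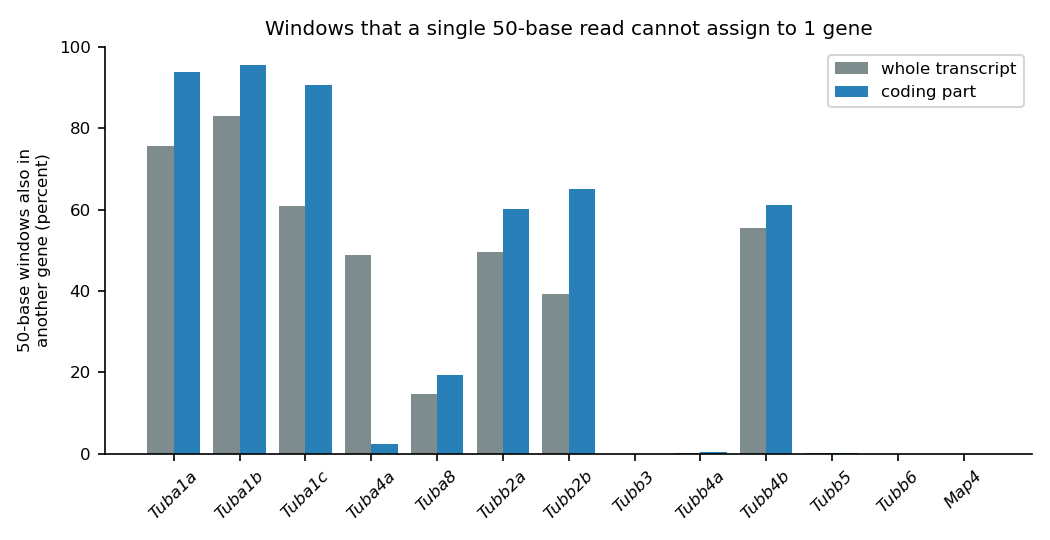
Percent of 50-base windows that also occur in a transcript of another gene (vertical axis), for each gene (horizontal axis), over the whole transcript (grey) and the coding part (blue). Tuba1a, Tuba1b and Tuba1c stand highest, and Tubb3, Tubb6 and Map4 are at 0.

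The libraries summed to between 535235 and 567027 FPKM, and Spearman correlations between mice of a group lay between 0.968 and 0.986 across genes. Sequencing depth could not be recovered, and the values come without an estimate of their counting error. The third DMSO+Sham mouse stood apart: it had the lowest median correlation with the other mice (0.973) and the lowest summed level of 7 cardiomyocyte markers, 36118 FPKM against 43853 to 53243 in the other 11 mice. That mouse also had the highest summed level of 6 macrophage markers, 293 FPKM against 120 to 239 in the other 11. Myl7, an atrial gene, was at 333, 67.5 and 42.3 FPKM in the third Hispidulin+Sham, the second DMSO+AB and the third Hispidulin+AB mice and at 15.03 or less in the others. Of the genes that mark cardiac hypertrophy, Nppb, a natriuretic peptide, was higher in every DMSO+AB mouse than in every DMSO+Sham mouse, by 3.08 ± 0.36 (SE) on the log2 scale (limma, adjusted p = 0.00360). Acta1, the skeletal actin of the fetal heart, Nppa, the other natriuretic peptide, and Ankrd1, a stress-responsive sarcomere protein, were higher by 4.12, 4.54 and 1.96 (adjusted p = 0.00320, 0.0121 and 0.00895), and over 17 other settings they passed in 17, 11 and 15. Myh7, the fetal myosin heavy chain, differed by 1.55 with overlapping groups and did not pass (adjusted p = 0.182). In bulk tissue, a change in the share of a cell type and a change in the RNA of each cell cannot be told apart.

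Per length of transcript, the tubulin message of the left ventricle was dominated by a few isotypes. Tuba4a, an isotype abundant in striated muscle, had the highest mean of the 10 genes in every group, between 218 and 340 FPKM. Tubb4b, Tuba8 and Tuba1b followed, with means between 106 and 183 FPKM, and Tubb2b was lowest, between 1.10 and 2.82 FPKM. In DMSO+AB mice the order by mean was Tuba4a, Tubb4b, Tuba8, Tuba1b, Tuba1a, Map4, Tubb5, Tubb2a, Tubb6 and Tubb2b. The ranges of the first 4 overlapped there, as did those of Tubb5 and Tubb2a, and the other neighbours did not overlap.

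The 10 genes are listed by symbol but are treated as selected on their log2 differences between DMSO+AB and DMSO+Sham, which were known when they were proposed, so this comparison is described without p-values. All 10 genes had a higher mean level in DMSO+AB than in DMSO+Sham mice, by 0.32 to 1.17 on the scale of log2(FPKM + 1), with a median of 0.56 against -0.03 over all genes tested, of which 44.2% were higher. The largest differences were those of Tubb2a and Tuba1a, and the smallest that of Map4. Tuba1a, Tubb2a and Tubb5, 3 of the 10, passed an adjusted p under 0.05 in the fit of all genes, where 5.21% of genes passed in either direction and 2.5% with a higher level. The mice of both groups did not overlap for 6 of the 10 (Tuba1a, Tubb2a, Tubb4b, Tubb5, Tubb6 and Map4), where 7.18% of all genes were higher without overlap. Since the genes were chosen with this comparison known, nothing is read from either count.

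**Figure D2:**
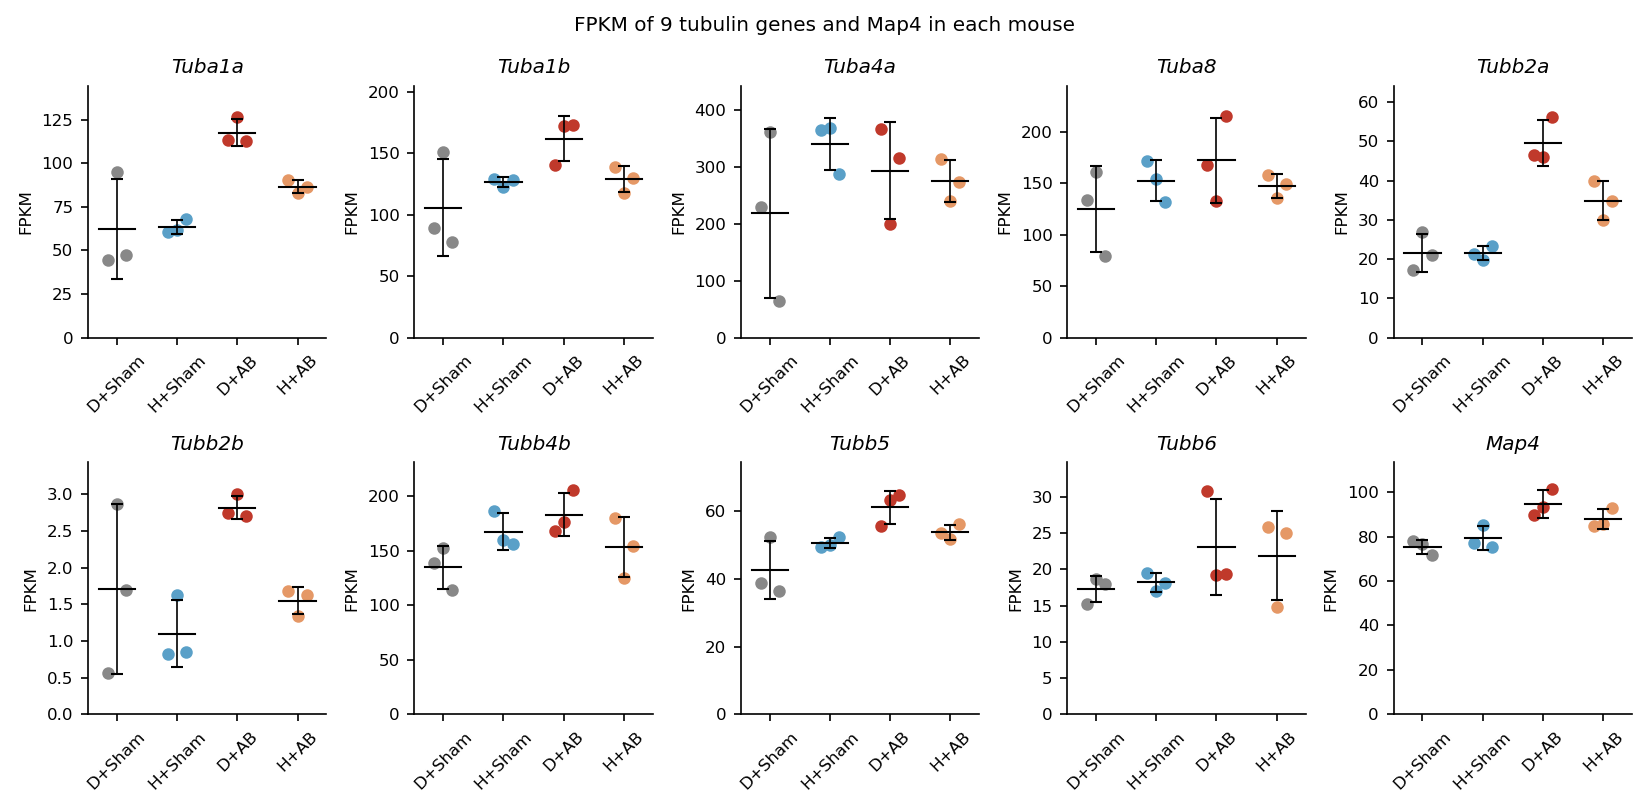
FPKM (vertical axes, each from 0) of the 10 genes in the 12 mice. Points are mice, bars are the group mean ± SD (n = 3), and groups are D+Sham (DMSO+Sham), H+Sham (Hispidulin+Sham), D+AB (DMSO+AB) and H+AB (Hispidulin+AB). Tubb2a and Tuba1a stand highest in the DMSO+AB mice and in between in the Hispidulin+AB mice, and Tuba4a has its lowest point, 64.19 FPKM, in the third DMSO+Sham mouse.

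Among the alpha isotypes, Tuba1a, which is best known from growing neurons, differed most. It stood at 44.45, 95.14 and 47.15 FPKM in the DMSO+Sham mice and at 113.38, 126.49 and 112.53 FPKM in the DMSO+AB mice. Every banded mouse lay above every sham mouse, although the second DMSO+Sham mouse stood well above the other mice of its group. The difference was 0.99 ± 0.22 (SE) on the log2 scale, or 1.89 times on the means. Leaving out 1 mouse at a time it ranged from 0.80 without the first DMSO+Sham mouse to 1.34 without the second.

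Tuba1b, the alpha isotype expressed in nearly all cells, stood at 88.86, 150.79 and 77.59 FPKM in DMSO+Sham and at 140.59, 171.84 and 173.07 FPKM in DMSO+AB. The groups overlapped through the second DMSO+Sham mouse, and the difference was 0.66 ± 0.19 on the log2 scale. Because these genes share most of their read windows, Tuba1a, Tuba1b and Tuba1c were also summed. The sum was 144.9, 263.3 and 144.9 FPKM in DMSO+Sham and 278.3, 323.3 and 310.1 FPKM in DMSO+AB, a mean difference of 0.78 on the log2 scale with no overlap. The higher level after banding was thus also present in the sum. The sum can still change with the division of reads, through the unequal transcript lengths of 1803, 1743 and 1982 bases and through reads given to AC157548.1, a gene outside the sum that held 46.6% of the Tuba1a and 57.0% of the Tuba1b windows.

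Tuba4a and Tuba8 were the alpha isotypes shown without a tyrosine codon at their end. Tuba4a stood at 228.89, 361.77 and 64.19 FPKM in DMSO+Sham and at 365.99, 199.34 and 315.45 FPKM in DMSO+AB. The spread within each group was wide and the groups overlapped, and the difference of 0.70 ± 0.47 on the log2 scale became -0.02 without the third DMSO+Sham mouse and 1.22 without the second. Tuba8 stood at 134.19, 161.26 and 79.25 FPKM in DMSO+Sham and at 168.19, 133.18 and 215.56 FPKM in DMSO+AB. Its difference of 0.49 ± 0.23 fell by more than 1.5 times, to 0.20, without that same mouse. For Tuba4a and Tuba8, therefore, the direction or the size rested on the library with the lowest cardiomyocyte markers.

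Of the beta isotypes, Tubb2a, a class II beta tubulin, gave the largest difference of the 10 genes. It stood at 17.20, 26.82 and 21.01 FPKM in DMSO+Sham and at 46.51, 45.97 and 56.33 FPKM in DMSO+AB. The lowest banded mouse was far above the highest sham mouse, and the difference was 1.17 ± 0.16 on the log2 scale, or 2.29 times on the means. It stayed between 1.03 and 1.33 when any 1 mouse was left out. The sum of Tubb2a and its near copy Tubb2b was higher by 1.19 on the log2 scale, from 17.76, 29.69 and 22.71 FPKM to 49.25, 48.97 and 59.04 FPKM.

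Tubb2b by itself was near the lower limit of the filter, at 0.56, 2.87 and 1.70 FPKM in DMSO+Sham and 2.74, 3.00 and 2.71 FPKM in DMSO+AB. The groups overlapped, and its difference of 0.59 ± 0.26 was 0.24 without the first DMSO+Sham mouse, 0.89 without the second, 0.94 with 0.1 in place of 1 added ahead of the logarithm and 1.08 with library weights. The size of the Tubb2b difference therefore depended on single mice, on their weights and on the value added.

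Tubb4b, the most abundant beta isotype here, and Tubb5, the main beta isotype of many cell types, were higher by smaller amounts. Tubb4b stood at 138.26, 152.14 and 113.73 FPKM in DMSO+Sham and at 167.81, 176.07 and 205.31 FPKM in DMSO+AB, a difference of 0.44 ± 0.15 on the log2 scale. Tubb5 stood at 38.82, 52.29 and 36.37 FPKM and at 55.57, 63.18 and 64.68 FPKM, a difference of 0.53 ± 0.12. In both genes all banded mice lay above all sham mice, and Tubb5 showed this with almost no read windows in common with other genes.

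Tubb6 and Map4 completed the set. Tubb6, a beta isotype that is expressed in regenerating muscle, stood at 15.21, 18.67 and 17.98 FPKM in DMSO+Sham and at 30.79, 19.16 and 19.29 FPKM in DMSO+AB. Only the first DMSO+AB mouse was clearly higher, and the difference of 0.37 ± 0.21 was 0.15 without it. Map4 stood at 77.86, 76.59 and 71.91 FPKM in DMSO+Sham and at 89.51, 93.13 and 101.57 FPKM in DMSO+AB. Its groups were tight and separate, with a difference of 0.32 ± 0.089 on the log2 scale, and it stayed between 0.27 and 0.36 when any 1 mouse was left out.

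The number of the 10 genes that passed depended on the libraries and the model. With the third DMSO+Sham mouse left out it was 1 (Tubb2a), as it was without the first DMSO+Sham, the second DMSO+AB or the third DMSO+AB mouse. It was 5 without the second DMSO+Sham mouse and 4 without the first DMSO+AB mouse. When the fit was restricted to the 6 mice compared, or left out the 3 mice with high Myl7, 0 of the 10 passed, and 11 and 20 of all genes did. The animal numbers in the labels fall into the 5000s (5 mice) and the 6000s (6 mice), apart from the first DMSO+Sham mouse, which is numbered 1 and enters no value within a series, and whether a series is a batch is not stated. In the 5000s (1 mouse against 1) 8 of the 10 genes (45.3% of all genes) were higher after banding, Tubb2a by 1.04 and Tuba1a by 0.24 on the log2 scale, and in the 6000s (2 mice against 1) all 10 (44.2% of all genes) were, Tubb2a by 1.10 and Tuba1a by 1.33. The sham mouse was the second DMSO+Sham mouse in the 5000s and the third, which stood apart, in the 6000s. Nothing is read from these counts, which use the mice of the selection.

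The make-up of the tubulin message was described as the share of each isotype in the summed FPKM of its family. Tubb2a made up 9.81 ± 1.48% of beta tubulin FPKM in DMSO+Sham and 8.24 ± 0.858% in Hispidulin+Sham, against 15.3 ± 0.632% in DMSO+AB and 13.0 ± 0.318% in Hispidulin+AB (mean ± SD, n = 3). The 6 banded mice, at 12.7% to 16.0%, lay above the 6 sham mice, at 7.59% to 10.9%, with either treatment. In the DMSO groups this restates the Tubb2a difference on which the genes are treated as selected, and the hispidulin mice were not part of it. Tubb4b had the opposite pattern of means, with 61.1 ± 3.65% and 63.9 ± 2.42% in the sham groups and 56.6 ± 1.78% and 57.0 ± 2.03% in the banded groups, and here the lowest sham mouse, at 58.9%, was below the highest banded mouse, at 59.3%. Tubb5 held 18.9% to 20.3% and Tubb6 6.95% to 8.05% of beta tubulin as group means. In the alpha family, Tuba4a held between 37.6% and 48.7% as group means and 22.3% in the third DMSO+Sham mouse.

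**Figure D3:**
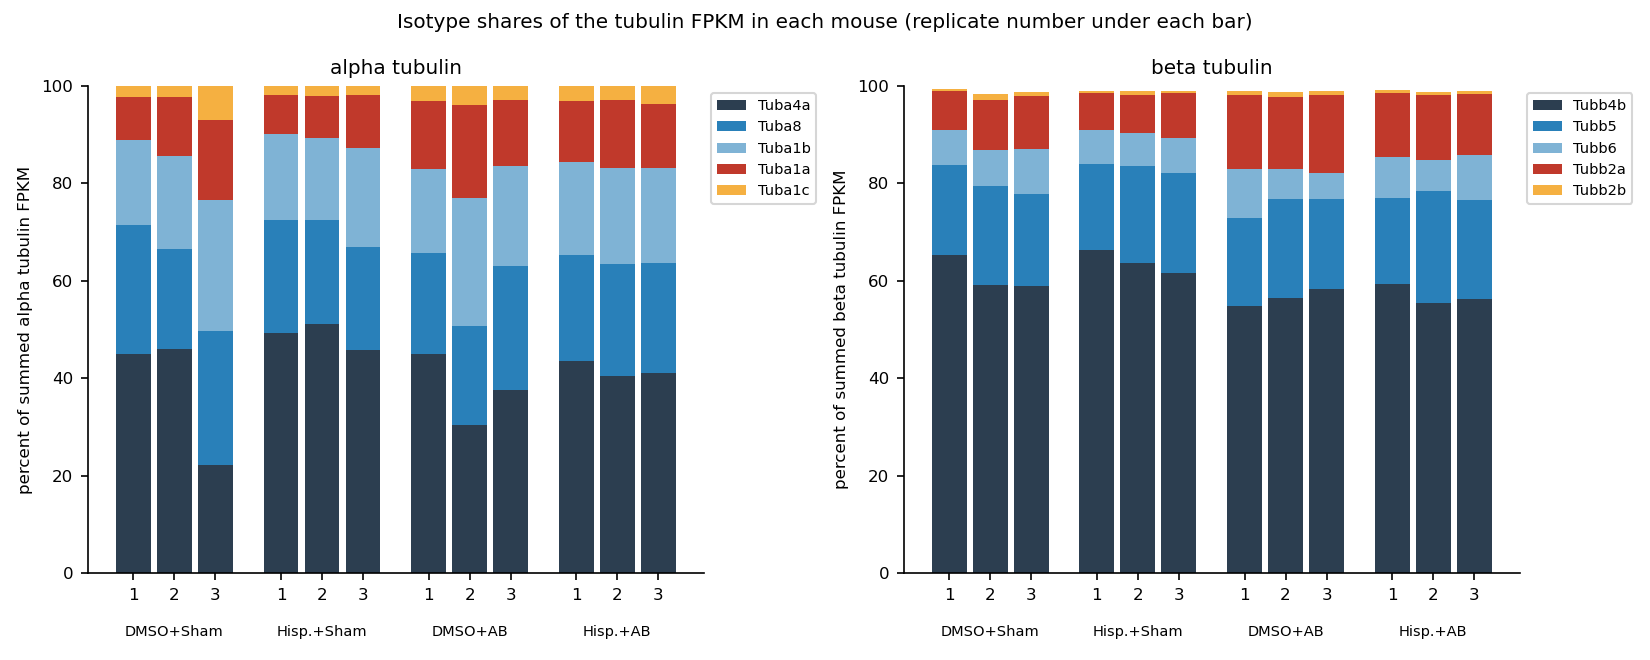
Share of each isotype (percent, vertical axis) in the summed FPKM of 8 alpha tubulin genes (left) and of 8 beta tubulin genes (right) in each mouse. Isotypes near 0, among them Tubb3 and Tubb4a, are in the sums and are not drawn. The Tubb2a band (red, right) is wider in the 6 banded mice, at 12.7% to 16.0%, than in the 6 sham mice, at 7.59% to 10.9%.

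The sums themselves were 527.7 ± 249.6 FPKM of alpha tubulin in DMSO+Sham and 770.0 ± 99.9 FPKM in DMSO+AB, with 695.5 ± 59.9 FPKM in Hispidulin+Sham and 659.6 ± 65.1 FPKM in Hispidulin+AB. The wide spread in DMSO+Sham came with values of 508.1, 786.4 and 288.4 FPKM. Beta tubulin summed to 220.6 ± 32.95 FPKM in DMSO+Sham and 323.2 ± 25.0 FPKM in DMSO+AB, in which the lowest banded mouse (306.3 FPKM) was above the highest sham mouse (257.1 FPKM), and to 262.0 ± 16.6 and 268.2 ± 39.6 FPKM in Hispidulin+Sham and Hispidulin+AB, which overlapped. No p-value was computed for sums or shares over genes chosen in this way.

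Mice that received hispidulin gave a comparison of banding with sham in other animals. After banding 7 of the 10 genes had a higher mean and 3 a lower one, where 45.1% of all genes were higher, with a median of 0.12 on the log2 scale (0.07 without the 3 mice with high Myl7) against -0.02 over all genes. None passed an adjusted p under 0.05 in limma, and neither did any other gene (0%). At an unadjusted p under 0.05 there was 1 of the 10, where 7.26% of all genes passed. With the replicate number as a block, 17 of all genes passed and 0 of the 10.

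The 1 gene was Tubb2a, at 21.33, 19.87 and 23.42 FPKM in Hispidulin+Sham and at 39.88, 29.94 and 34.79 FPKM in Hispidulin+AB. All banded mice were above all sham mice, and the difference was 0.66 on the log2 scale (95% interval 0.32 to 1.01), or 1.62 times on the means, with an unadjusted p of 0.00123 and an adjusted p of 0.340 (limma). The adjusted p lay between 0.0177 and 1.00 over 17 other settings and passed in 1 of them, limma with library weights. Under hispidulin, Tubb2a was thus higher in 3 of 3 banded mice, and the test did not pass the correction over all genes.

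Tuba1a was the other gene without overlap, at 60.33, 61.74 and 68.27 FPKM in Hispidulin+Sham and at 90.27, 82.75 and 86.59 FPKM in Hispidulin+AB. Its difference was 0.44 on the log2 scale (95% interval -0.03 to 0.92, adjusted p = 0.707). That interval also carries the wide spread of the DMSO+Sham mice, since the fit pools all 4 groups. A lack of overlap was seen in these 2 of the 10 genes and in 20.9% of all genes, so the count is near the background. The remaining genes differed by between -0.30 (Tuba4a) and 0.30 (Tubb2b), with adjusted p from 0.785 for Map4 to 0.990 for Tuba1b. For Tubb5 the difference was 0.08 with an interval of -0.19 to 0.36, and for Tubb4b it was -0.14 with an interval of -0.46 to 0.19.

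**Figure D4:**
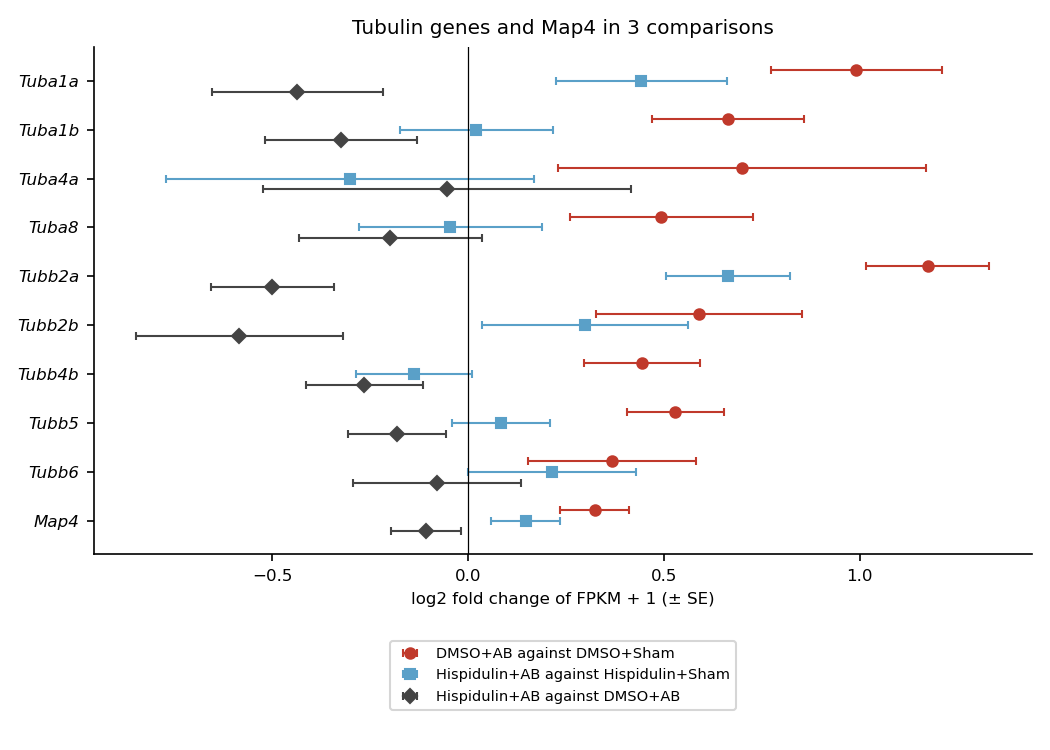
Differences of the 10 genes (vertical axis) on the scale of log2(FPKM + 1) (horizontal axis), with bars of 1 SE from limma to each side, for DMSO+AB against DMSO+Sham (red), Hispidulin+AB against Hispidulin+Sham (blue) and Hispidulin+AB against DMSO+AB (grey). The red and grey comparisons share the DMSO+AB mice. Tubb2a is the gene farthest from 0 in red, at 1.17, and in blue, at 0.66.

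Banded mice with and without hispidulin were compared to ask whether the level after overload differed with treatment. This comparison uses the same 3 DMSO+AB mice as the comparison of DMSO+AB with DMSO+Sham, on which the genes are treated as selected. Genes chosen for high levels in those mice may be lower in another group for that reason alone, so the values are a description without p-values for single genes. All 10 genes had a lower mean in Hispidulin+AB, by 0.05 to 0.58 on the log2 scale, with a median of -0.23 against 0.00 over all genes, of which 48.6% were lower. Without the second Hispidulin+AB mouse the median was -0.15 and 2 of the 10 were higher, and 2 were also higher without the first DMSO+AB mouse and 1 without the third. None of the 10 passed an adjusted p under 0.05 in limma, and neither did any other gene (0%). An unadjusted p under 0.05 was seen for 2 of the 10 and for 3.1% of all genes, and the selection bears on this count too.

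Tubb2a had means of 49.6 ± 5.83 FPKM in DMSO+AB and 34.9 ± 4.97 FPKM in Hispidulin+AB, a difference of -0.50 ± 0.16 (SE). Tubb2b stood at 2.74, 3.00 and 2.71 FPKM against 1.68, 1.34 and 1.63 FPKM, a difference of -0.58 ± 0.26, and the summed FPKM of both genes differed by -0.53 on the log2 scale. In these genes, and in Tuba1a at -0.44 ± 0.22 and Tuba1b at -0.32 ± 0.19, all Hispidulin+AB mice lay below all DMSO+AB mice. These were 4 of the 10 genes, where 3.65% of all genes were lower without overlap, and because of the selection nothing is read from this count or from the count of lower genes. Tuba8, Tubb4b, Tubb5, Tubb6, Map4 and Tuba4a overlapped, with differences from -0.26 to -0.05.

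Values within the animal series come from the same DMSO+AB mice, so the selection bears on them too and nothing is read from their direction. In the 5000s (1 mouse against 1) and in the 6000s (2 against 2), 9 of the 10 genes were lower in Hispidulin+AB, where 49.3% and 53.1% of all genes were, with Tubb2a at -0.68 and -0.41 on the log2 scale. The exceptions were Tubb6 in the 5000s, at 0.36, and Tuba4a in the 6000s, at 0.02. Under hispidulin, banding against sham gave 7 of 10 higher in each series, where 49% and 39% of all genes were, with Tubb2a at 0.73 and 0.54.

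In sham mice, hispidulin gave no difference that passed, in a comparison that shares its DMSO+Sham mice with the one on which the genes are treated as selected, so its counts are likewise only described. Between Hispidulin+Sham and DMSO+Sham, 9 of the 10 genes were higher and Tubb2b lower (47.6% of all genes were higher), 0 passed in limma (0% of all genes), and 2.46% of all genes and 0 of the 10 had an unadjusted p under 0.05. Tubb2a stood at almost equal means, 21.5 ± 1.78 and 21.7 ± 4.84 FPKM, with an interval of the difference from -0.33 to 0.35. Tuba4a had the largest difference, 0.95 with an interval of -0.08 to 1.97, and it was 0.23 without the third DMSO+Sham mouse, when 7 of the 10 genes were higher and 3 lower. Only Tubb4b did not overlap, at 186.62, 159.57 and 156.52 against 138.26, 152.14 and 113.73 FPKM, where 2.77% of all genes were higher without overlap.

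The interaction asks directly whether the difference between banded and sham mice depended on treatment. It subtracts the DMSO+AB against DMSO+Sham difference on which the genes are treated as selected, so values below 0 may follow from that choice. It was below 0 for all 10 genes, and for 46.6% of all genes, with a median of -0.52 on the log2 scale and of -0.34 without the third DMSO+Sham mouse. Tubb2a stood at -0.51, Tuba1b at -0.64 and Tubb6, nearest to 0, at -0.15, and nothing is read from these values. In limma 0 of the 10 and 0% of all genes passed an adjusted p under 0.05. An unadjusted p under 0.05 was seen for 4 of the 10 and for 2.48% of all genes. Because of the selection nothing is read from this count. A different response to banding under hispidulin was therefore not shown for any of the 10 genes.

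The 10 genes did not vary as a single block. After subtraction of the group means, the log2 levels of Tuba1b and Tubb5 correlated by 0.97 over the 12 mice, Tuba1a and Tuba1b by 0.91, Tuba4a and Tuba8 by 0.91 and Tuba1a and Tubb5 by 0.89. Tubb6 correlated with no other member by more than 0.39 and Map4 by no more than 0.51. These values are descriptions over 12 libraries that share their preparation, and Tuba1a and Tuba1b also share reads.

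For Tubb2a, the 5 genes outside the set with the most similar levels over the 12 mice were Tax1bp3 (Pearson r = 0.971), a gene without a symbol in the table used (0.970), Dbn1 (0.968), C77080 (0.960) and 1810055G02Rik (0.951). After subtraction of group means these correlations were 0.885, 0.776, 0.675, 0.739 and 0.900. Dbn1, which encodes the actin-binding protein drebrin, stood at 3.90 ± 1.08 FPKM in DMSO+Sham, 16.2 ± 1.41 in DMSO+AB, 3.88 in Hispidulin+Sham and 10.1 in Hispidulin+AB.

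Genes that fold, modify, bind or move along tubulin were described by lists, beside the median of -0.03 over all genes and the 5.21% that passed in DMSO+AB against DMSO+Sham. These lists and the cell type markers were also chosen with earlier results of these data known. Their adjusted p-values in this comparison are therefore descriptions, and nothing is read from the counts that passed. Of the other 11 tubulin genes, 6 were tested and 0 passed. Tuba1c stood at 16.4 ± 4.39 FPKM in DMSO+Sham and 24.6 ± 0.298 FPKM in DMSO+AB (adjusted p = 0.0982), and Tubb3, a neuronal isotype, at 0.577 ± 0.609 and 1.57 ± 0.569 FPKM (adjusted p = 0.0932). The tubulin-folding list, which holds the CCT chaperonin, prefoldins and tubulin cofactors, had 22 genes tested, 0 passed and a median of 0.04. Its largest differences were 0.33 for Tbca and 0.31 for Pfdn1.

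Of the enzymes of the tyrosination cycle, 3 were tested and 1 passed. Svbp, the partner that the vasohibins need to cut the final tyrosine, rose from 15.2 ± 2.05 FPKM in DMSO+Sham to 22.5 ± 2.99 FPKM in DMSO+AB, by 0.54 on the log2 scale (adjusted p = 0.0468). Vash1, a vasohibin, and Ttl, the ligase, which are named outside the rule because they complete the cycle, differed by 0.64 (adjusted p = 0.136) and 0.20 (adjusted p = 0.476). Under hispidulin, banded against sham mice gave 0.12 for Svbp (adjusted p = 0.930). The polyglutamylation and glycylation list had 9 genes tested, of which 1 passed: Agtpbp1, a carboxypeptidase that shortens glutamate chains on tubulin, fell from 44.4 ± 11.8 to 22.5 ± 5.76 FPKM, with a log2 difference of -0.94 (adjusted p = 0.0235). Of the 3 acetylation genes 0 passed, with 0.32 for Atat1, the acetyltransferase of alpha tubulin, and 0.11 for the deacetylase Hdac6.

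Among 13 other microtubule-associated proteins tested, Map6, a microtubule-stabilising protein, was the 1 that passed, at 2.92 ± 0.380 FPKM in DMSO+Sham and 5.62 ± 1.56 FPKM in DMSO+AB (log2 difference 0.73, adjusted p = 0.0360). Of 18 plus-end and minus-end proteins, Pcnt, a scaffold of the centrosome, passed and fell from 14.0 ± 1.40 to 7.56 ± 0.825 FPKM (-0.81, adjusted p = 0.00858). Of 7 stathmins and severing proteins, Fign, a severing enzyme, passed and fell from 1.17 ± 0.141 to 0.457 ± 0.0643 FPKM (-0.57, adjusted p = 0.0227), and it was tested only because it exceeded 1 FPKM in the sham groups. The motor list had 21 genes tested and 0 passed, with 0.57 for Dynll1 and 0.55 for Kif5b, a kinesin heavy chain.

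In the intermediate filament list, 3 of 9 genes passed and all 9 were above 0 (median 0.34), where 44.2% of all genes were. Des, the desmin to which detyrosinated microtubules are tied, rose from 1084 ± 172 to 1636 ± 291 FPKM (0.59, adjusted p = 0.0451), Vim from 119 ± 50.1 to 235 ± 60.2 FPKM (1.02, adjusted p = 0.0378) and Lmna, a nuclear lamin, from 50.4 ± 1.23 to 76.0 ± 14.2 FPKM (0.57, adjusted p = 0.0296). Vim is also expressed by fibroblasts and endothelial cells. These calls depended on the setting as those of the 10 genes did. Over the other settings Pcnt passed in 15 of 17, Lmna in 11 of 17, Agtpbp1 in 10 of 17, Fign in 10 of 16, Vim in 9 of 17, Des and Svbp in 7 of 17 and Map6 in 6 of 16, none of them with only the 6 mice compared or without the 3 mice with high Myl7, and each kept its direction. Apart from Pcnt, each also lost its call without each of the first DMSO+Sham, the second DMSO+AB and the third DMSO+AB mice, with adjusted p of at most 0.255 in any setting.

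In both other comparisons of banded mice, and in the interaction, 0 genes of any list passed, as for all genes. Banded against sham under hispidulin, Des differed by 0.47 (adjusted p = 0.517) and Pcnt by -0.52 (adjusted p = 0.351).

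Markers of some cell types differed with banding as well. In DMSO+AB against DMSO+Sham, 0 passed in the endothelial, smooth muscle and pericyte, macrophage, platelet, erythroid and adipocyte lists. Of the 7 cardiomyocyte markers 5 were lower in DMSO+AB than in DMSO+Sham, where 55.8% of all genes were, with a median of -0.21. The 1 that passed was Ryr2, the calcium release channel (-0.59, adjusted p = 0.0364). The cardiomyocyte sums of the DMSO+AB mice lay within the range of the DMSO+Sham mice. The 6 macrophage markers had a median of 0.13, and they summed to 120 to 293 FPKM in DMSO+Sham and 156 to 239 FPKM in DMSO+AB. All 8 fibroblast markers were above 0 in DMSO+AB against DMSO+Sham, where 44.2% of all genes were. Of them 3 passed, Postn by 3.08 (adjusted p = 0.0197), Col1a1 by 1.86 (adjusted p = 0.0407) and Col1a2 by 1.60 (adjusted p = 0.0464). Over 17 other settings these passed in 11, 9 and 8, and Ryr2 in 9. The fibroblast markers summed to 346 to 448 FPKM in DMSO+Sham, 354 to 483 in Hispidulin+Sham, 406 to 987 in DMSO+AB and 407 to 656 in Hispidulin+AB. The 6 neuron and Schwann cell markers summed to 9.95 to 16.7 FPKM in DMSO+Sham and 22.5 to 44.6 FPKM in DMSO+AB. The sum was 13.2 to 18.8 FPKM in Hispidulin+Sham and 20 to 22 FPKM in Hispidulin+AB. Banded and sham mice did not overlap in this sum under either treatment. Most of the sum in the DMSO groups was 1 gene, Uchl1, with means of 11.2 FPKM in DMSO+Sham and 32.3 FPKM in DMSO+AB. Banded and sham mice were separate in the same way for Tubb2a, and also for Tuba1a, Nppb and Acta1. Of the 3 neuron and Schwann cell genes tested, 2 were higher and 1 lower (-0.32) in DMSO+AB against DMSO+Sham, and 1 passed. This was Uchl1, a ubiquitin hydrolase abundant in neurons, which rose from 11.2 ± 3.29 to 32.3 ± 10.9 FPKM (1.42, adjusted p = 0.0121). Uchl1 passed in 11 of 17 other settings. Banded against sham under hispidulin, 1 of the 3 genes was higher and 2 were lower, with a median of -0.00182. Tubb3 of this list was given above, and Snap25 was at 0 FPKM in every DMSO+AB mouse. Of the 4 atrial markers 1 passed, Nppa, which ventricles also express under load, while Myl7, Myl4 and Sln overlapped, and the list summed to 90.3 to 309 FPKM in DMSO+Sham and 683 to 6215 FPKM in DMSO+AB. The 4 proliferation markers together stayed at 0.42 to 1.91 FPKM in DMSO+Sham and 1.11 to 3.09 FPKM in DMSO+AB, below the filter in each gene. The 5 smooth muscle and pericyte markers summed to 236 to 288 FPKM in Hispidulin+AB and 185 to 252 FPKM in DMSO+AB, where all 5 had a lower mean (median difference 0.41) and 0 passed. Endothelial markers summed to between 222 and 279 FPKM in all mice, and the part of any of these cell types in the tubulin levels was not tested.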

How the data were processed

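RNA was isolated from left ventricular muscle and poly(A) RNA was sequenced as single-end reads of 50 bases on a BGISEQ-500. The authors deposited FPKM values, rounded to 0.01, for 18079 genes listed by NCBI Gene identifier in 12 libraries. The submitters' processing notes name HISAT2 2.0.4, Bowtie2 2.2.5 and RSEM 1.2.12, and the genome build and annotation are not given in the sources used here. RSEM divides reads that match several genes. Read counts were not used. Among 28304 ratios of low values, 20.5% came within 0.1 of whole numbers and an even spread gives 20%, so depth could not be recovered.

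Symbols were found for 17947 genes. Values were analysed as log2(FPKM + 1) with limma 3.58.1 in R 4.3.3, for genes that reached 1 FPKM in 3 or more libraries, in 1 model of 4 group means over all 12 libraries, with eBayes with a trend, two-sided, and Benjamini-Hochberg adjustment over 11664 genes. The procedure was tested on simulated data. Errors are SE for log2 differences and SD for group means. The labels do not say more of the animals than their numbers, so p-values measure the spread between these 3 mice per group.

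The members and gene lists were chosen with earlier results of these data known. Members are all named. From each list other than the cell type markers, genes that passed in DMSO+AB against DMSO+Sham are named, at most 4, and otherwise the 2 with the largest difference. Of the list symbols, 2 were not found. The list of hypertrophy genes (8, of which 4 rose and 1 fell in DMSO+AB) served only as a check of the banding.

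Replicate numbers belong to different animals. Residuals of same-numbered mice correlated by 0.147, 0.197 and 0.228 in Hispidulin+AB and Hispidulin+Sham. In Hispidulin+Sham and DMSO+Sham they correlated by 0.126, 0.330 and 0.232. The main fit paired no mice, and the replicate number entered as a block only in an alternative setting. Pairs in the other comparisons included values below 0. Other alternatives were 0.1 added ahead of the logarithm, other filters, quantile normalization, median-of-ratios scaling, library weights, no trend, the animal series as a covariate, only the libraries compared, the 3 libraries with high Myl7 left out, and each mouse left out.

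Coding ends and shared windows were computed with Python 3.11.15 from GENCODE M21, whose build may not be that of the authors, so no coordinates are given. Some items are not reported here. Windows were searched in 141767 transcripts.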

Additional observations from a re-analysis of the deposited data

How the results depend on the processing

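Between DMSO+AB and DMSO+Sham, 608 genes and 3 of the 10 members passed. The counts of genes and members were 383 and 1 without a filter, 1423 and 5 with library weights, 142 and 1 with the animal series as a covariate (the lone mouse outside both series then carries no information), 11 and 0 with only the libraries compared and 20 and 0 without the 3 libraries with high Myl7. With 1 mouse left out at a time they ranged from 91 (without the first DMSO+Sham mouse) to 1050 (without the second) and from 1 to 5. The counts were 953, 104 and 190 genes without the first, the second and the third DMSO+AB mouse. Correlations of same-numbered mice were negative there, and the replicate block gave 640 genes and 3 members.

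Between Hispidulin+AB and Hispidulin+Sham the count of genes was 0, against 2 without a filter, 2 with median-of-ratios scaling, 3 with quantile normalization, 209 with library weights, 17 with the replicate block, 51 with only the libraries compared, and 0 to 3 with 1 mouse left out (3 without the second Hispidulin+AB mouse). With library weights 1 member passed, Tubb2a, at 0.73. Between Hispidulin+AB and DMSO+AB it was 0, against 2 without a filter and 0 to 20 with 1 mouse left out (20 without the first DMSO+AB mouse). The interaction gave 0, and 0 to 3 with 1 mouse left out (3 without the first DMSO+AB mouse). The replicate block also ended the calls of Svbp and Map6 in DMSO+AB against DMSO+Sham.

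Tuba4a in DMSO+AB against DMSO+Sham (0.70) turned to -0.02 without the third DMSO+Sham mouse. Directions also turned in members near 0. Tuba1b under hispidulin (0.0215) was -0.0176 with quantile normalization and ranged from -0.0326 without the first Hispidulin+AB mouse to 0.0842 with 1 mouse left out. Tuba8 there (-0.0447) was 0.0983 with the animal series as a covariate and ranged from -0.144 to 0.0418. In Hispidulin+AB against DMSO+AB, Tuba4a (-0.0540) was 0.135 with library weights and ranged from -0.309 to 0.127, and Tubb6 (-0.0794) was 0.00703 with library weights and ranged from -0.216 to 0.169. The cause was not tested. Depth is unknown, which leaves the precision of Tubb2b, at 3.00 FPKM or less in every mouse, unknown as well.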
